A study of Zea mays and Triticum urartu with 3 samples.

Results

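The plastid genome of maize was examined through the RNA of young leaves of the inbred line B73. The loci described here were all those placed on chromosome Pt, the plastid genome, in the locus table of the B73 input library. There were 54 of them among 46011 loci in that table. Of the 54, 21 carried an annotated gene identifier and 33 an identifier of the assembly. Loci are called annotated or assembled by this identifier alone. Several assembled loci, such as those of rpl33 and ndhA, had exactly the coordinates of a known gene. The series held 3 libraries, 1 for each group, so none of the differences given here could be checked in replicates and no p-value was computed. No antibody is named in the labels of the B73 input library. The B73 RIP library came from the same material after precipitation with anti-CENH3 antibody, CENH3 being the form of histone H3 that marks centromeres. Both maize libraries carry the same protocol text, with DNase I digestion of leaf chromatin before the antibody step, and at which step the input RNA was taken was not stated. The series also holds a leaf library of the wild wheat *Triticum urartu*, which was not used here. The RIP table listed 45374 loci and no plastid locus, not even at 0, so no ratio of RIP to input can be given for plastid genes.

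Plastids keep a small circular genome that descends from a cyanobacterium. It encodes core subunits of the photosystems, of the cytochrome b6f complex, of the ATP synthase and of the NDH complex, together with the large subunit of Rubisco and parts of the plastid's own ribosomes and RNA polymerase. Most of these genes are transcribed together in operons and their RNA is then cut and spliced. A large and a small single-copy region are separated by an inverted repeat, so the genes of the repeat are present as mirrored copies. In a young green leaf, RNA of photosynthesis genes is known to be among the most abundant of the cell.

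The unit was FPKM, the number of sequenced fragments per kilobase of transcript, scaled to the size of the library, and each FPKM came with a lower and an upper deposited limit. The fragments behind each value were derived from the distance of the upper limit from the FPKM and are called implied fragments. At loci with several transcripts this derivation is only approximate. The tables did not pair plastid identifiers with gene names. Names were taken by position from a RefSeq gene table that lists 158 plastid genes. The coordinates of 21 loci were identical to those of a gene in that table, and 35 shared a start or an end with one. The RNA libraries were made with a kit that was not stated to keep strand, so a gene and a neighbour that overlaps it on the other strand cannot be told apart.

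FPKM was above 0 at 50 of the 54 loci (92.6%). Over all listed input loci this share was 40.9%, and for assembled loci alone it was 85.4%. All 21 annotated plastid loci were above 0, against 22.6% of the annotated loci of the whole table. Plastid genes without a listed locus, such as psbM and petN, do not enter these shares. The shares therefore depend on which loci were listed, and no annotated plastid locus was listed at 0. All 50 had at least 1 FPKM, and 26 had at least 100, a level reached by 1.04% of the listed input loci. The plastid loci thus lay at the high end of this library. Their median above 0 was 117 FPKM, with a 95% rank interval over loci of 69.7 to 195, and quartiles of 47.0 and 246. Among annotated loci above 0, the median was 106 FPKM in the plastid, 6.51 FPKM at 38 mitochondrial loci and 1.72 FPKM at 7298 nuclear loci. On the log2(FPKM + 1) scale the plastid median was 5.30 above the nuclear median (rank interval over loci 2.91 to 6.65). It was 3.83 above the mitochondrial median (0.749 to 5.99). These are differences between loci of 1 library, and loci are not replicates.

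The 54 loci held 23954 implied fragments, or 3.22% of the 744101 in the table (95% Wilson interval 3.18% to 3.26%, counting error only). Mitochondrial loci held 0.432%. A single nuclear locus on chromosome 10 held 49.6% of the library, and without it the plastid share was 6.39%. Of the 100 loci with the most fragments in the library, 20 were plastid loci. Assembled loci carried 79.7% of the plastid fragments and annotated loci 20.3%. As few as 5 loci held 47.8% of the plastid fragments, and 12 loci held 78.1%.

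**Figure D1:**
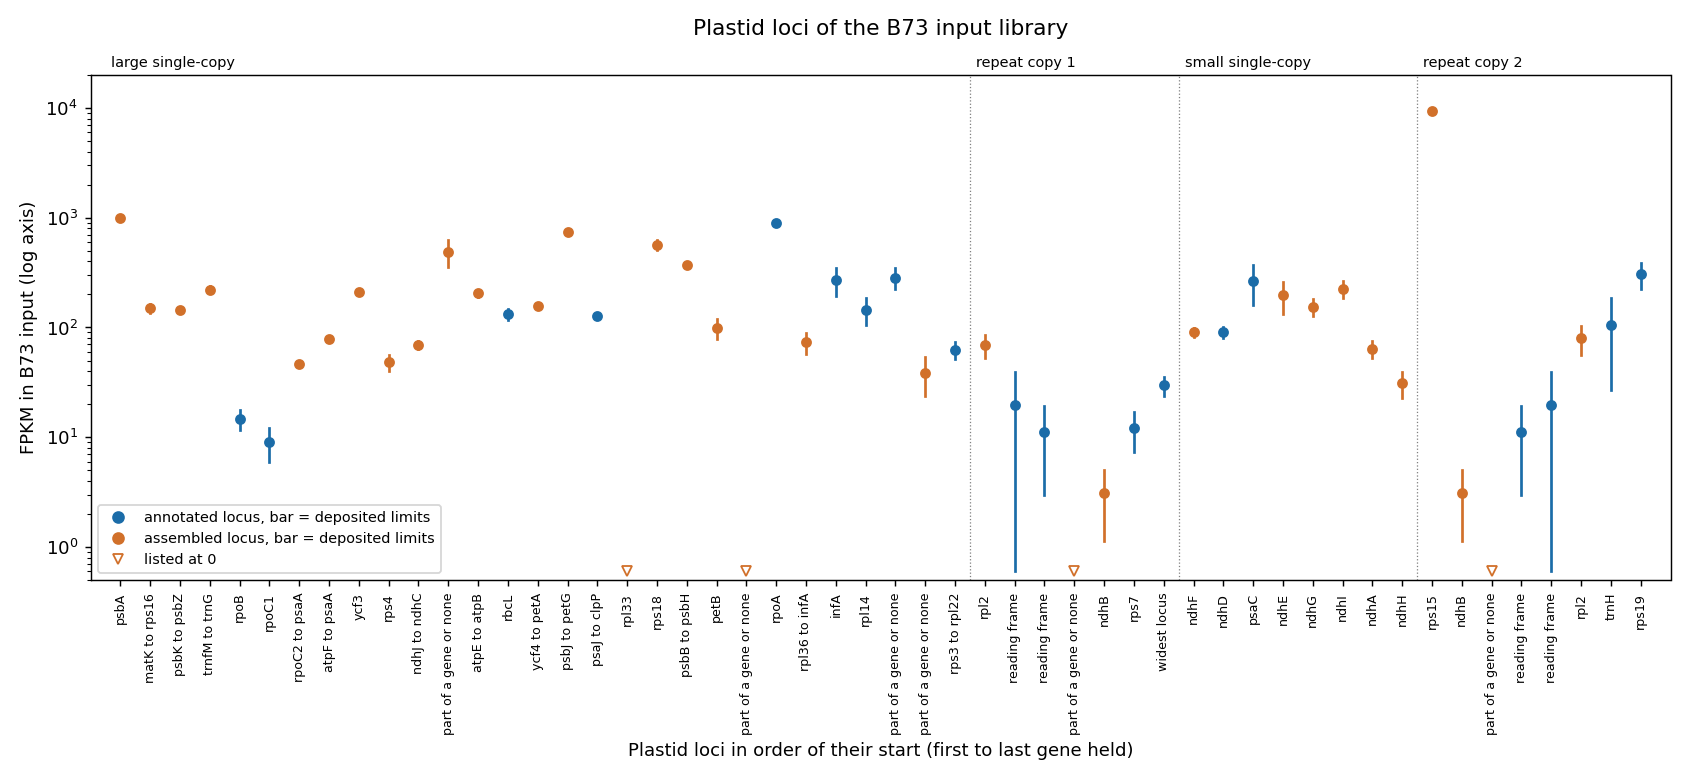
FPKM of 52 of the 54 plastid loci of the B73 input library on a log axis, in the order of their starts, with the deposited limits as bars and lower limits of 0 drawn at the base of the axis. Blue points are annotated and orange points assembled loci, open triangles are the 4 loci listed at 0, and the assembled rps15 locus stands at the top with 9463 FPKM while both ndhB copies lie lowest above 0 at about 3.1 FPKM.

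The highest FPKM belonged to a short assembled locus that held rps15, a gene for a protein of the small ribosomal subunit, next to the small single-copy region (Pt:117772-118011, 240 bp). It had 9463 FPKM (limits 8856 to 10071) from 971 implied fragments, and it alone made up 51.4% of the FPKM sum of all plastid loci. By fragments it was only the 10th of the plastid loci. Its fragments per kilobase of span were 4046, still the highest of all plastid loci. The mirrored copy of rps15 in the other repeat had no listed locus of its own. Reads of identical copies cannot be told apart, so the value cannot be assigned to this copy alone.

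The second highest was psbA, which encodes the D1 protein of the photosystem II reaction centre (Pt:24-1523). The locus had 997 FPKM (958 to 1035) from 2734 implied fragments, the most of any plastid locus and the 11th most of the whole library. The rps15 locus exceeded it 9.50-fold by FPKM (95% interval 8.83 to 10.2, counting error only) and 2.22-fold by fragments per kilobase (2.06 to 2.39). Both scales thus put the rps15 locus above psbA, but by very different amounts. The rps15 gene has a mirrored copy and psbA has none, so these folds are not per gene copy.

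The highest annotated locus was GRMZM5G879235 (Pt:75623-77189), with 889 FPKM (853 to 926) from 2325 fragments. It held rpoA, the gene for the alpha subunit of the plastid-encoded RNA polymerase, and also reached over the last 26.9% of petD, which encodes a subunit of the cytochrome b6f complex. An assembled locus within petD (Pt:75428-75952) overlapped it and was listed at 0. RNA of rpoA and of the end of petD can therefore not be told apart at this locus.

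Psb and pet genes followed. An assembled locus with psbJ, psbL, psbF, psbE, petL and petG (Pt:62444-65748) had 744 FPKM (713 to 775) and 2326 fragments. The proteins of psbE and psbF form cytochrome b559 of photosystem II, and petL and petG encode small subunits of the cytochrome b6f complex. Its neighbour with ycf4, cemA and petA, the gene for cytochrome f (Pt:59194-62447), had 156 FPKM (146 to 166) and 1015 fragments. The first of these loci was 4.76-fold higher by FPKM (4.42 to 5.13) and 2.26-fold higher by fragments per kilobase.

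The rest of the 12 loci with the highest FPKM were mostly short. Of the 12, 7 spanned less than 600 bp, and 6 were assembled. They included rps18 (Pt:67532-68044, 568 FPKM, 322 fragments), a locus over part of the trnV gene (Pt:53076-53318, 490 FPKM, 53 fragments) and rps19 in the second repeat copy (Pt:140068-140361, 304 FPKM, 59.1 fragments). A locus over an end of rpl16 (Pt:79519-79881) had 284 FPKM from 84 fragments. The annotated locus of infA, a gene for a translation initiation factor, had 272 FPKM from 49 fragments (Pt:78085-78408). An assembled locus that also held the whole infA gene had only 72.98 FPKM. The psaC gene, for the iron-sulphur subunit of photosystem I, had 267 FPKM (160 to 374) from 25 fragments (Pt:111760-112005). Of the 11 neighbouring pairs in this order, the 4 from rps15 down to rps18 had limits that were apart, and the 7 after them had limits that overlapped.

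Ranking by implied fragments brought up long loci instead. Only 5 loci were among the 12 highest in both rankings. Of the 12 with the most fragments, 10 were assembled and 11 spanned at least 1500 bp, the rps15 locus being the exception. After psbA, the psbJ to petG locus and rpoA came the locus of psbB, psbT, psbN and psbH (Pt:70618-73328) with 2075 fragments and 374 FPKM (358 to 391). Psb genes again made up the next locus, with psbK, psbI, psbD, psbC and psbZ and 4 tRNA genes (Pt:6392-12986), which had 1994 fragments but only 144 FPKM (138 to 150). The psbB locus, which encodes the inner antenna protein CP47, was 2.60-fold higher than this psbD and psbC locus by FPKM (2.44 to 2.76) and 2.53-fold by fragments per kilobase.

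Other loci with many fragments held genes of photosystem assembly and of the ATP synthase. The locus of ycf3, a photosystem I assembly factor, had 210 FPKM (197 to 224) from 950 fragments (Pt:44015-46334). The locus of atpB and atpE, which encode the beta and epsilon subunits of the ATP synthase, had 204 FPKM (191 to 217) from 993 fragments (Pt:53682-56211). The rbcL gene, for the large subunit of Rubisco, begins nearby and runs the other way. It had 132 FPKM (118 to 146) from 344 fragments (GRMZM5G815453, Pt:56824-58323), and was only the 24th of the plastid loci by FPKM and the 17th by fragments. In maize, a C4 plant, Rubisco is made in bundle sheath cells and not in mesophyll cells.

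At equal spans of 1500 bp, psbA exceeded rbcL 7.56-fold by FPKM (6.75 to 8.45) and 7.96-fold by fragments (7.12 to 8.91). The limits of these genes were far apart. The atpB and atpE locus exceeded rbcL 1.55-fold by FPKM (1.37 to 1.75).

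**Figure D2:**
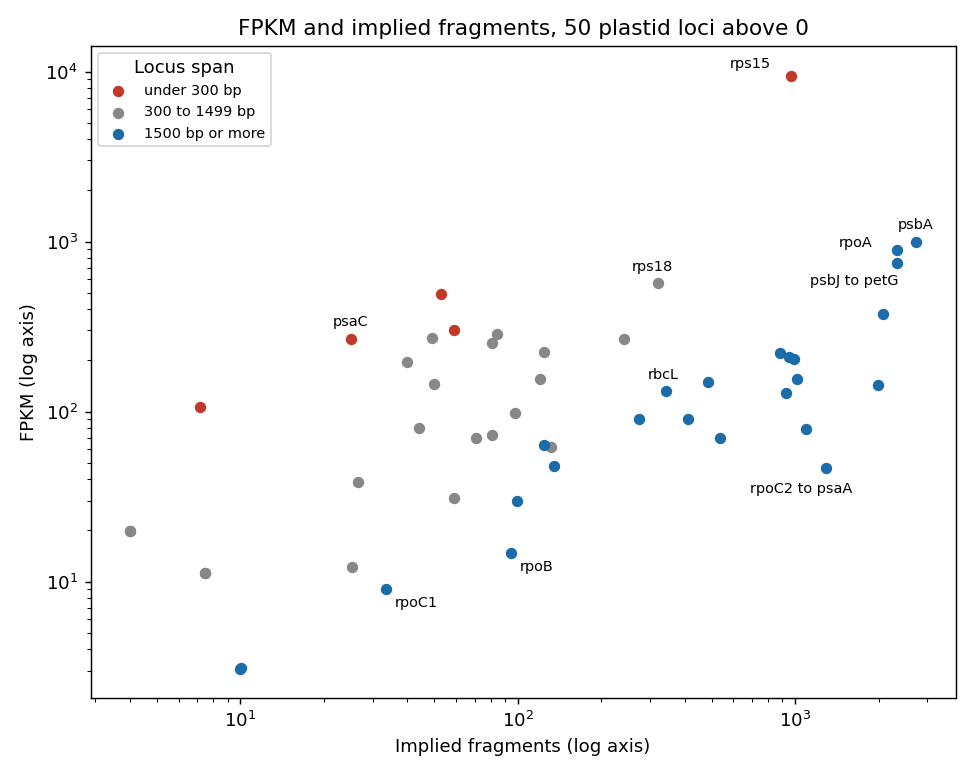
FPKM against implied fragments on log axes for the 50 plastid loci above 0, coloured by locus span. Loci under 300 bp lie above longer loci with as many fragments, with rps15 at 9463 FPKM from 971 fragments, while the rpoC2 to psaA locus has 46.6 FPKM from 1293 fragments.

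FPKM and fragments ranked the 50 loci alike only in part, with a Spearman's rho of 0.53 over loci. Both come from the same library and from the same deposited values, so the figure is a description. The difference between the scales went with the span of the loci. At the 5 loci above 0 that spanned less than 300 bp, 1 FPKM stood for 0.0676 to 0.194 implied fragments. At the 24 loci of 1500 bp or more, it stood for 1.95 to 27.7. Short loci therefore reach a high FPKM from few fragments. Fragments per kilobase of span, which use no effective length, gave an order closer to that of FPKM, with a rho of 0.89.

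Several loci lay off this relation to span, and the reason was not tested. The ndhA locus (Pt:114343-116454, 2112 bp) had 1.95 fragments per FPKM, and rpoC1 with a similar span of 2052 bp had 3.69. At rpl2 in the second repeat copy (Pt:138323-139807, 1485 bp) the value was 0.556, and at psbA with 1500 bp it was 2.74. The psbJ to petG locus (3305 bp) had 3.13, and the ycf4 to petA locus (3254 bp) had 6.50. The locus GRMZM5G806488 spanned 38215 bp (Pt:92870-131084) and had only 3.33 fragments per FPKM. Its 29.7 FPKM (23.8 to 35.7) came from 99.1 fragments, or 2.59 per kilobase of span. It ran from the first repeat copy across the whole small single-copy region into the second copy. Within its span lay 43 genes of the RefSeq table, 8 of them rRNA genes, and 9 other listed loci, so its value cannot be assigned to any of them.

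**Figure D3:**
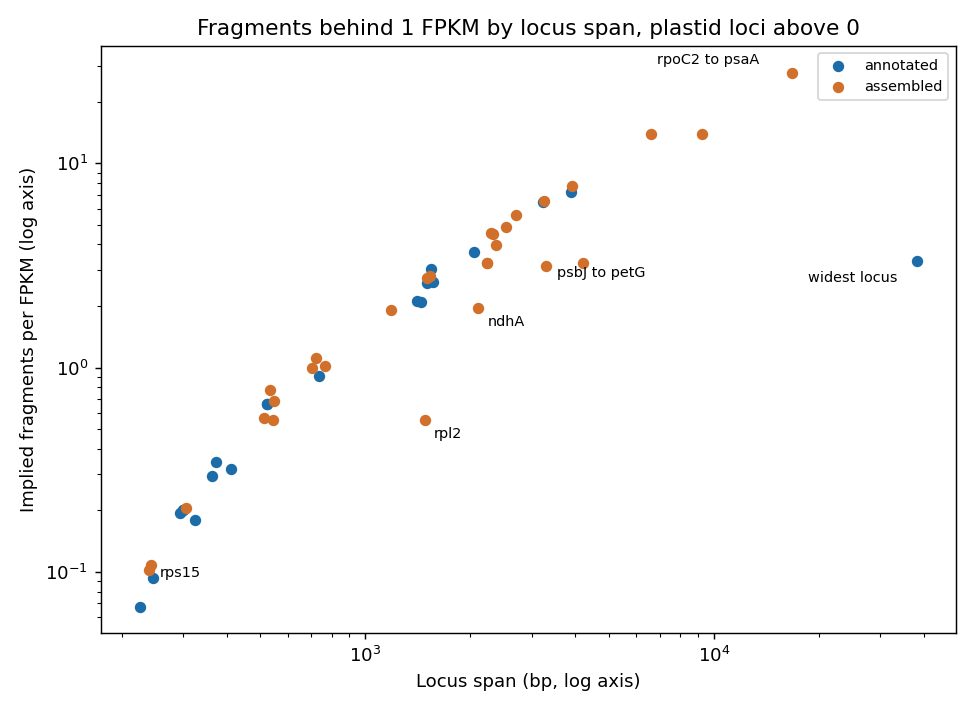
Implied fragments per FPKM against locus span on log axes for the plastid loci above 0, in blue for annotated and orange for assembled loci. The value rises with span from 0.0676 to 27.7, and the widest locus with 3.33, rpl2 with 0.556 and ndhA with 1.95 lie below loci of similar span.

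Loci that joined several genes were next considered, since plastid operons are transcribed as long RNAs. Of the 33 assembled loci, 13 held at least 2 whole genes of the RefSeq table. They spanned from 720 to 16811 bp, had from 46.6 to 744 FPKM with a median of 144, and together held 12955 implied fragments, or 54.1% of the plastid total. The library kit was not stated to keep strand, so a joined locus can also merge separate RNAs of neighbouring genes on opposite strands. A joined locus is therefore not by itself evidence of an operon RNA. Whether the RNA of any of these loci was a single molecule cannot be read from the table.

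The widest of them (Pt:26983-43793) held rpoC2, rps2, atpI, atpH, atpF, atpA, trnR, rps14, psaB and psaA. It had 46.6 FPKM (44.0 to 49.2) and 1293 fragments. A second assembled locus lay wholly inside it (Pt:34529-43793, atpF to psaA), ended at the same base and had 79.0 FPKM (74.3 to 83.8) from 1093 fragments. Both together held 9.96% of the plastid fragments. They joined an ATP synthase operon to the neighbouring psaA, psaB and rps14 genes, which encode the reaction centre proteins of photosystem I and a ribosomal protein. No separate value for psaA, psaB or atpA can be given from this table.

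Further joined loci held neighbouring genes. The ndhJ, ndhK and ndhC genes of the NDH complex lay with trnL and trnF in a locus with 69.7 FPKM (63.6 to 75.7) and 536 fragments (Pt:48882-52793). A locus with matK, the maturase of plastid introns, and rps16 had 150 FPKM (136 to 164) and 487 fragments (Pt:1645-5857). A locus with trnfM, trnG and an unnamed reading frame had 221 FPKM (206 to 236) and 882 fragments (Pt:12720-15097).

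The remaining joined loci were those of trnS and rps4 (Pt:46404-47932, 48.1 FPKM, 135 fragments), of rpl36 and infA (Pt:77865-78584, 72.98 FPKM, 81 fragments) and of rpl2 (79.7 FPKM, 44.3 fragments). The last held only a reading frame within rpl2 besides that gene. The table also held 5 annotated loci with 2 or more whole genes. The longest of these after GRMZM5G806488 was GRMZM5G804708 (Pt:66312-70204) with psaJ, rpl33, rps18, rpl20, rps12 and clpP, at 128 FPKM (120 to 137) and 927 fragments. The clpP gene encodes the proteolytic subunit of a plastid protease.

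Some loci overlapped on the same stretch, and how reads were shared between them was not tested. Inside GRMZM5G804708, the separate locus of rps18 had 568 FPKM, 4.42-fold above that of the locus around it (3.90 to 5.02), and 2.64-fold above it by fragments per kilobase (2.32 to 2.99), whereas the separate locus of rpl33 was listed at 0. Leaving out GRMZM5G806488, 15 of the other 53 loci overlapped another listed locus. Identifiers were also shared, as 4 assembled identifiers covered 13 loci, and 1 of them covered 7 loci from ndhF to rps15.

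The gene groups were then compared, using loci whose named protein genes belonged to 1 group alone. The RefSeq table held 82 named protein genes, repeat copies counted, and loci above 0 other than GRMZM5G806488 covered at least 50% of the length of 72 of them. By symbol these were 70 of 76. All 5 photosystem I genes, 14 of 15 photosystem II genes, all 6 ATP synthase genes, all 11 NDH symbols, all 4 RNA polymerase genes and rbcL were covered, as were 4 of 6 cytochrome b6f genes and 19 of 21 ribosomal protein symbols. Coverage here is by position only, and many genes were covered only by a long joined locus, so it is not a value for each gene. Among the photosynthesis genes, psbA, rbcL and psaC each had a locus above 0 that held no other whole gene.

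The 6 symbols that were not covered were psbM, petN, petD, ccsA, rpl23 and rpl32. Of these, petD was overlapped in part, at 26.9% of its length. Both psbM and petN, which encode small subunits of photosystem II and of the cytochrome b6f complex, lay with 5 tRNA genes and a tRNA pseudogene in the longest stretch of the large single-copy region without a listed locus (Pt:15098-21467, 6370 bp). Of 38 tRNA genes, 13 were covered, in each case as part of a longer locus. None of the 8 rRNA genes was covered by a locus other than GRMZM5G806488. The study removed rRNA from its RIP RNA before the libraries were made, and whether the input was treated in the same way was not stated.

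**Figure D4:**
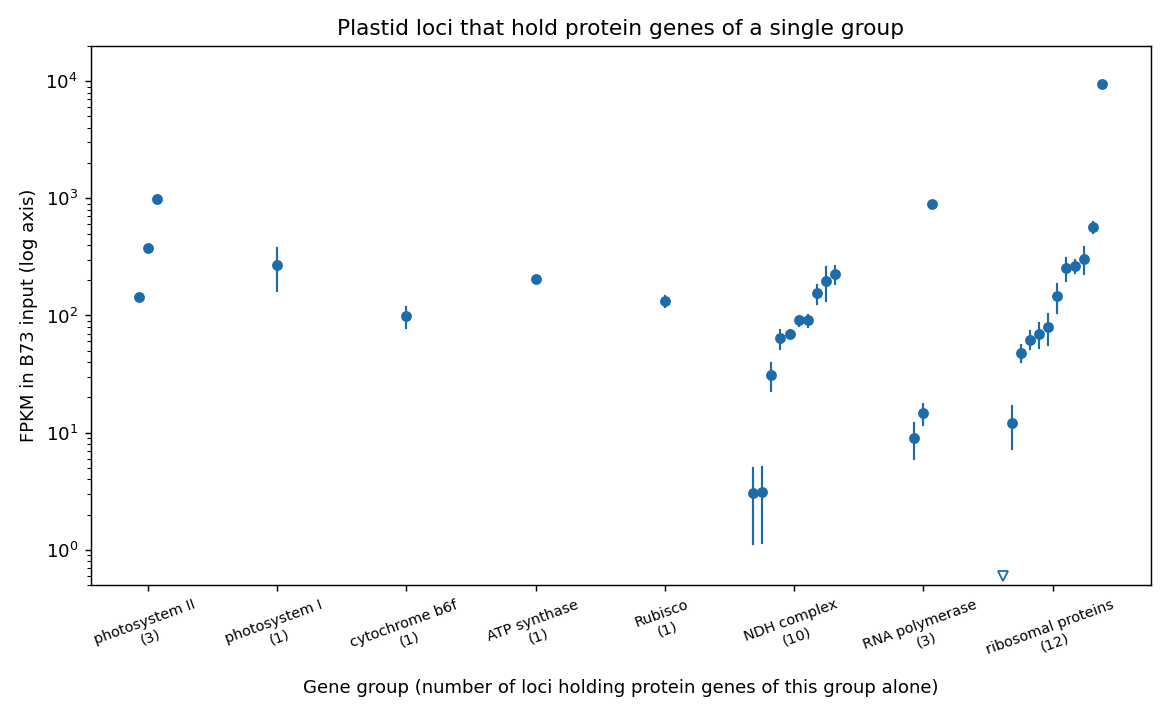
FPKM on a log axis of plastid loci that hold named protein genes of 1 group alone, with deposited limits as bars, lower limits drawn no lower than the axis base and an open triangle for the locus at 0. The 3 photosystem II loci lie between 144 and 997 FPKM, the 10 NDH loci between 3.08 and 224, the 3 RNA polymerase loci between 9.06 and 889, and the ribosomal protein loci above 0 between 12.1 and 9463.

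Photosystem II splits water and passes its electrons on to the cytochrome b6f complex. The 3 loci with psb genes alone had 144, 374 and 997 FPKM and held 6804 fragments in sum. Only 1 locus held photosystem I genes alone, psaC at 267 FPKM. The cytochrome b6f group had 1 such locus, over part of petB (Pt:73842-74543), the gene for cytochrome b6, with 98.6 FPKM (78.7 to 119) from 98 fragments. It was 3.79-fold lower than the psbB locus of the same operon by FPKM (3.10 to 4.65). By fragments per kilobase it was 5.48-fold lower (4.48 to 6.72).

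RNA polymerase genes differed widely among themselves. The rpoB gene, for the beta subunit, had 14.7 FPKM (11.7 to 17.7) from 94.4 fragments (GRMZM5G877454, Pt:21468-24695). The adjacent rpoC1 gene had 9.06 FPKM (5.92 to 12.2) from 33.4 fragments (GRMZM5G899366, Pt:24733-26784), and the limits of these neighbours overlapped. They were the lowest loci of the large single-copy region above 0. The rpoA locus was 60.6-fold above rpoB by FPKM (49.3 to 74.4), but rpoA lies in the ribosomal protein operon and its locus overlapped petD.

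Within that operon, the annotated locus of rpl14, a gene for a protein of the large ribosomal subunit, had 146 FPKM (105 to 187) from 50.0 fragments (Pt:79038-79409). The annotated infA locus of the same operon had 272 FPKM (194 to 349). The assembled locus over rpl36 and the whole of infA had 72.98 FPKM (56.8 to 89.2), so the limits of these entries were apart. Further along, the locus of rps3, rpl22 and part of rps19 had 62.3 FPKM (51.4 to 73.1) from 132 fragments (GRMZM5G838396, Pt:81113-82518). An assembled locus over another part of rpl16 (Pt:80373-80918) had 38.6 FPKM (23.6 to 53.5) from 26.6 fragments.

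The NDH complex carries electrons around photosystem I in the thylakoid membrane, and most of its plastid genes lie in the small single-copy region. There, 7 loci held 1 ndh gene each and had 1155 fragments in sum. All 8 loci of the region, psaC included, had implied fragments that were whole within 0.02.

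The ndhF gene had 90.8 FPKM (81.8 to 99.7) from 413 fragments (Pt:105072-107369). The ndhD gene had nearly the same level, with 90.9 FPKM (80.0 to 102) from 275 fragments (GRMZM5G800096, Pt:110138-111685). Values were higher at the short genes ndhE, with 195 FPKM from 40 fragments, ndhG, with 155 from 120, and ndhI, with 224 from 124. The ndhA gene had 63.6 FPKM (52.2 to 75.1) from 124 fragments, and ndhH had 30.9 FPKM (22.9 to 39.0) from 59 (Pt:116456-117637).

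The order within the group depended in part on the scale. The ndhI locus exceeded ndhH 7.25-fold by FPKM (5.32 to 9.89) and 4.57-fold by fragments per kilobase (3.36 to 6.24). The ndhE locus was 2.15-fold above ndhD by FPKM (1.54 to 2.99), but its fragments per kilobase were 0.736 of those of ndhD (0.528 to 1.03). A difference between ndhE and ndhD was therefore not resolved.

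The remaining NDH gene, ndhB, lies in the inverted repeat and had the lowest plastid values above 0. The copies had 3.08 FPKM (1.13 to 5.03) from 9.96 fragments (Pt:89236-91472) and 3.10 FPKM (1.14 to 5.06) from 10.0 fragments (Pt:131265-133501). The ndhF locus was 29.5-fold above the first of them by FPKM (15.7 to 55.2). A mitochondrial copy of ndhB, described below, was also listed. How reads were shared among the ndhB copies was not tested, so this fold is not a difference between genes.

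The axis of the repeat was placed from the listed loci themselves, and its limits from RefSeq genes that have a mirrored copy around this axis. In 4 pairs of loci, both members had the same span and mirrored positions around 1 axis. Besides the ndhB pair, 2 pairs were unnamed reading frames with identical values in both copies. GRMZM5G877173 (Pt:87515-87814) and GRMZM5G866761 (Pt:134923-135222) had 19.8 FPKM (0 to 39.7) each, from 4 fragments. GRMZM5G872747 (Pt:87875-88396) and GRMZM5G885905 (Pt:134341-134862) had 11.2 FPKM (2.99 to 19.4) each, from 7.45 fragments.

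The pair that remained, assembled loci of 210 bp beside ndhB (Pt:88701-88910 and Pt:133827-134036), was listed at 0 in both copies. The ndhB copies differed by 0.685% and had limits that overlapped. Reads of identical copies cannot be assigned to either, so these values are not separate measurements of the copies.

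Other repeat genes were not listed as pairs. The rps7 locus of the first copy (GRMZM5G844628, Pt:91653-93101) had 12.1 FPKM (7.31 to 16.9) from 25.4 fragments, and its mirrored start coincided with the end of GRMZM5G806488. For rpl2, the first copy had an assembled locus over part of the gene (Pt:83036-83803, 69.5 FPKM, 70.6 fragments) and the second had the whole gene (79.7 FPKM, 44.3 fragments). A locus over trnH and an unnamed reading frame was listed in the second copy alone (GRMZM5G866064, Pt:139824-140048), with 106 FPKM (26.8 to 185) from 7.16 fragments.

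By region, 31 loci of the large single-copy region held 89.6% of the plastid fragments, at 314 implied fragments per kilobase covered by loci above 0 (310 to 318, counting error only). The 8 loci of the small single-copy region had 135 per kilobase (127 to 143). In the first repeat copy 6 loci had 22.2 per kilobase (18.4 to 26.7), and in the second 8 loci had 208 (196 to 221). This difference rested on rps15, listed in the second copy alone, without which the second copy had 26.1 per kilobase. As reads of identical copies cannot be assigned, it is not a measured difference between the copies. Implied fragments were whole at 11 of 29 loci above 0 in the large single-copy region and at 2 of 12 in the repeat copies.

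Plastid sequences have also been transferred into the mitochondrial genome of maize, and the RefSeq table marks 28 mitochondrial genes of this origin by the ending -ct. At mitochondrial positions 89 of 139 input loci and 75 of 132 RIP loci had the coordinates of a gene of that table. These loci were examined because both maize tables list them. In both tables, 5 loci of the same coordinates overlapped plastid-derived genes only. In input, all 5 also lay inside a wider assembled locus (Mt:328234-421576) with 33.3 FPKM (25.5 to 41.1). No such locus was listed over them in RIP, and its effect on the input values was not tested.

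The largest of these plastid-derived loci held copies of ndhB, rps7 and a part of rps12 (Mt:330767-335518). It had 110 FPKM (102 to 117) from 849 implied fragments in input, and 91.6 FPKM (87.8 to 95.4) from 2337 in RIP. The plastid ndhB loci of both copies and the rps7 locus of the first copy had 45.4 implied fragments in sum in input, so the mitochondrial locus had 18.7 times as many. How reads were shared between the plastid and mitochondrial copies of these sequences was not tested.

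The other 4 had fewer fragments. A locus over a plastid-derived reading frame (GRMZM5G826672, Mt:336423-336818) had 8.50 FPKM (0 to 18.1) in input and 17.7 (10.9 to 24.6) in RIP. The locus with rps19, trnH and part of rpl2 (GRMZM5G827951, Mt:346145-347501) had 7.64 FPKM (4.09 to 11.2) and 7.10 (5.57 to 8.63). These limits overlapped between the libraries at both loci.

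GRMZM5G861353 (Mt:347110-347523), which lay almost wholly inside the locus just named, was listed at 0 in input and had 19.8 FPKM (15.2 to 24.4) from 75 fragments in RIP. A locus listed at 0 has limits of 0, so these limits cannot be compared. GRMZM5G899892, over parts of rpl2 and rpl23 (Mt:348199-348528), had 58.8 FPKM (24.9 to 92.8) from 12 fragments in input and 5.65 (1.38 to 9.91) from 7 in RIP. FPKM is scaled to each library on its own, so these values stand side by side with no ratio. Limits were apart here and at the ndhB and rps7 locus, with 1 library each.

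**Figure D5:**
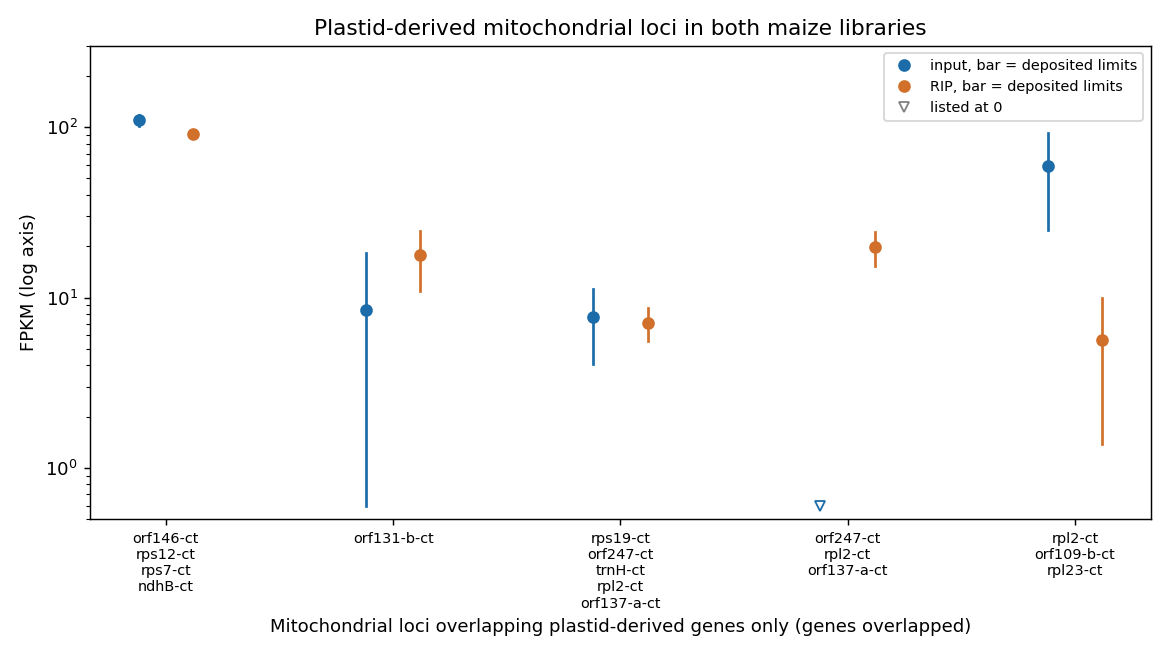
FPKM on a log axis in the B73 input (blue) and RIP (orange) libraries at the 5 mitochondrial loci that overlap plastid-derived genes only, with deposited limits as bars and an open triangle for a locus listed at 0. The locus with ndhB and rps7 copies is highest in both libraries, at 110 and 91.6 FPKM.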

How the data were processed

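RNA of young B73 leaves was measured in 1 input library, and the authors deposited FPKM values per locus with lower and upper confidence limits. The submitters' processing notes name CASAVA, TopHat2 2.0.12 and Cufflinks with B73 RefGen_v4, and the Cufflinks version and any filter on loci were not given in the sources used here. No raw count was used, and the depth behind each locus was taken only from implied fragments, (2 × FPKM/(upper limit − FPKM)) squared. Their sum is not the number of reads, and intervals from them cover counting error only. The paper reports far more read pairs for the input library than this sum. Starts are counted from 1, with 1 added to the deposited start.

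Gene names came by position from a RefSeq table of the assembly Zm-B73-REFERENCE-NAM-5.0, whose plastid and mitochondrial gene coordinates were checked against the loci, and none of its coordinates is printed. A gene was called covered at 50% of its length. Named loci were the 12 highest by FPKM, the 12 highest by fragments, those at 0, the mirrored pairs and the assembled loci with 2 or more genes, and others appear where they complete a group. Loci and lists were chosen with earlier results of these data known. The code for fragments and for mirrored pairs was checked on simulated data built with the same formula. Such a check cannot show whether the deposited limits follow that formula. Python 3.11.15, numpy 2.4.6, pandas 2.3.3 and scipy 1.17.1 were used. Alternatives changed the limit used, filters on span and low values, the pseudocount of 1 and the loci in a total. No plastid sequence was used here, so none is shown. Values of 2 plastid loci are not reported here.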

Additional observations from a re-analysis of the deposited data

How the results depend on the processing

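With 1 library per group, no library could be left out and only counting error is known. The plastid share of fragments was 3.22%, and it was 3.29% with the lower limit, 3.45% for loci with 10 or more fragments and 6.39% without the nuclear locus with the most fragments. The plastid share of the FPKM sum was 0.639%, 1.41% for loci of 300 bp or more, and 0.312% without the rps15 locus, an alternative chosen after seeing the data. The median plastid FPKM stayed within its rank interval, from 90.9 to 117. The median difference from nuclear loci was 5.30 on the log2(FPKM + 1) scale and 6.74 with loci at 0 included, and that from mitochondrial loci was 3.83 and 6.74, the other medians being 0 by then. The remaining alternatives, a pseudocount of 0.1 and loci of 300 bp or more, gave differences within the rank intervals. Spearman's rho of FPKM and fragments was 0.63 for loci of 300 bp or more. Without the locus with the most fragments, the density per kilobase was 280.2 in the large single-copy region, 10.4 and 26.1 in the repeat copies and 119 in the small single-copy region. With annotated loci alone the densities were 275, 16.2, 57.9 and 167. No paired analysis was possible because each group has 1 library.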
